A study of Arabidopsis thaliana with 6 samples.

Results

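miR165 and miR166 are plant microRNAs that pair with the mRNAs of the class III homeodomain-leucine zipper (HD-ZIP III) transcription factors. They were chosen here as every microRNA (miRNA) in the deposited target sheet with predicted sites in at least 4 of the 5 HD-ZIP III genes of Arabidopsis thaliana. The rule found 5 of 178 precursor entries, which hold 2 of 142 distinct mature sequences. One sequence, with 2 entries, is miR165a/b-3p, and the other, with 3 entries, is miR166-3p, the product of the genes MIR166a to MIR166g. The names come from exact matches to mature products annotated in the TAIR10.1 reference. Both sequences had sites in all 5 genes, and the next 5 sequences each had a site in 1 gene, so that no sequence lay close to the limit.

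Small RNA was sequenced from 3 libraries of the wild type Col-0, the control, and 3 of the mutant ein2-1, which the design text calls biological replicates. EIN2 is the central transducer of ethylene signalling, and ein2-1 is a mutant allele of it that leaves plants without an ethylene response. Both genotypes had the same treatment: 14-day-old seedlings grown in long days were put under water for 1 hour, and their leaf explants then spent 7 days on CIM, a callus-inducing medium that starts cell division in wounded tissue. RNA came from the upper part of the explants, and no group without submergence is included here. Counted once per distinct sequence, the libraries held 333025 to 987089 counts. ein2-1 replicate 1 stood apart in its TMM scaling factor, at 0.666 against 0.932 to 1.16 in the other 5 libraries, and values without it are given where they change a result. The tables list miRNAs and predicted sites, so EIN2, tissue markers and the mRNAs of the HD-ZIP III genes were not analysed here. In bulk tissue, fewer cells that make a miRNA and less of it per cell cannot be told apart.

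In leaves, HD-ZIP III proteins specify the upper (adaxial) side, and miR165 and miR166 restrict their mRNAs to that side by guiding AGO1 to cut them on the lower (abaxial) side. The same pair of miRNAs shapes the shoot meristem, the vascular tissue and the radial pattern of the root, where they move from cell to cell. AGO10 binds them and keeps them from AGO1, which protects HD-ZIP III mRNAs in the shoot meristem.

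The mature sequences are shown first because their single difference sets how each one pairs with its targets. Each is 21 nt long and is written 5′ to 3′ with the seed, bases 2 to 8, in capitals, as deposited.
miR165: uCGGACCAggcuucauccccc
miR166: uCGGACCAggcuucauucccc
They are identical at 20 of 21 positions, and the difference from miR165 to miR166 is C17U, counted from the 5′ end. Both share the seed CGGACCA, which no other sequence in the table carries.

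The counts cannot be divided among the genes of each miRNA, since those genes give the same mature product. miR165 matched the TAIR10.1 genome at 2 places, in MIR165a (AT1G01183, chr1:78932-78952, minus strand) and MIR165b (AT4G00885, chr4:369856-369876, minus strand). miR166 matched at 7 places on 3 chromosomes. These were MIR166a (AT2G46685, chr2:19176241-19176261, plus strand) and MIR166b (AT3G61897, chr3:22922301-22922321, plus strand), and 5 genes on chromosome 5. The latter are MIR166c (AT5G08712, chr5:2838737-2838757, plus strand), MIR166d (AT5G08717, chr5:2840708-2840728, plus strand), MIR166e (AT5G41905, chr5:16775524-16775544, minus strand), MIR166f (AT5G43603, chr5:17516378-17516398, plus strand) and MIR166g (AT5G63715, chr5:25504882-25504902, plus strand). MIR166c and MIR166d lie 1848 bases apart on the same strand. Every match lay in the 3′ arm of its annotated precursor. Of the table's other sequences, 0 came from these 9 precursors, and of 4 annotated 5′ partner strands 0 were listed.

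One precursor of each miRNA is printed to show where the mature strand, in capitals, lies in its hairpin. MIR165a spans chr1:78927-79037 on the minus strand and MIR166b spans chr3:22922206-22922325 on the plus strand (RefSeq, TAIR10.1), and both are written 5′ to 3′.
MIR165a: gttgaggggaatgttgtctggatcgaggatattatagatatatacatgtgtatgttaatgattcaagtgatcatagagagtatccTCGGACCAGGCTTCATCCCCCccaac
MIR166b: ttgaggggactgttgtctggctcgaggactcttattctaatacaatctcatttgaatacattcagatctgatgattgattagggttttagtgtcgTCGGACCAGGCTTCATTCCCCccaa
The mature strand takes bases 86 to 106 of the 111 bases of MIR165a, and bases 96 to 116 of the 120 bases of MIR166b.

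The 5 predicted HD-ZIP III sites are printed because they are nearly the same and differ where the 2 miRNAs differ. Each is the mRNA strand 5′ to 3′, and the capital marks the base that faces position 17 of the miRNA.
PHB: uuggGaugaagccugguccgg
PHV: uuggGaugaagccugguccgg
REV: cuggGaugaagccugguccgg
ATHB-8: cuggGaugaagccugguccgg
ATHB-15: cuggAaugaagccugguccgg
The sites formed 3 distinct sequences and were identical at 19 of 21 positions, differing at positions 1 and 5 from their 5′ end. All 5 lay in coding sequence and began at the second base of a codon, and psRNATarget, the tool behind the target sheet, listed each as a cleavage site.

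PHB (AT2G34710) and PHV (AT1G30490) are close paralogs that specify the adaxial side of leaves. Their sites are at bases 952 to 972 of transcript AT2G34710.1 and 927 to 947 of AT1G30490.1. On TAIR10.1, with the intron included, they span chr2:14642530-14642666 and chr1:10799330-10799445, both on the minus strand. REV (AT5G60690) acts in lateral meristems and vascular patterning, and its site is at bases 1304 to 1324 of AT5G60690.1, spanning chr5:24398787-24398898 on the plus strand. ATHB-8 (AT4G32880) marks early vascular cells, and its site is at bases 959 to 979 of AT4G32880.1, spanning chr4:15866872-15866974 on the minus strand. ATHB-15 (AT1G52150, also CORONA) acts in the shoot meristem and the vasculature. Its site is at bases 1354 to 1374 of AT1G52150.1 and lies in all 3 listed transcripts, spanning chr1:19412976-19413085 on the minus strand.

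Each HD-ZIP III site was split by an intron. The first 11 bases lay in exon 4 and the last 10 in exon 5, or in exons 5 and 6 for ATHB-8, so that the spliced mRNA holds the site and the gene's DNA does not hold it unbroken. The junction faced miRNA positions 10 and 11 in all 5 genes, the place where an Argonaute usually cuts. Other predicted sites were counted with 1 site per sequence and gene. Of those of miR165 and miR166 in transcripts with introns, 7 of 116 (6.03%) crossed a junction, and 1 had it at positions 10 and 11. For all other pairs of sequence and gene, 510 of 8366 (6.1%) crossed a junction and 28 (0.335%) had it there. The 5 genes are paralogs with a shared exon structure and are not independent cases, and this count was chosen after the sites had been seen.

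The expectation of psRNATarget is the authors' deposited score of a site, in which a lower value is a closer match. miR165 scored 0.5 at PHB, PHV, REV and ATHB-8, with 18 paired bases, 1 wobble pair at position 1 and mismatches at positions 20 and 21. miR166 scored 1.0 at the same 4 sites, with 17 paired bases and a second wobble at position 17. At ATHB-15 the order was the other way: miR166 scored 0.5 with 18 paired bases, and miR165 scored 1.5 with 17 paired bases and a further mismatch at position 17. Thus miR165 had the closer match in 4 genes and miR166 in 1, all through the position at which the miRNAs differ.

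**Figure D1:**
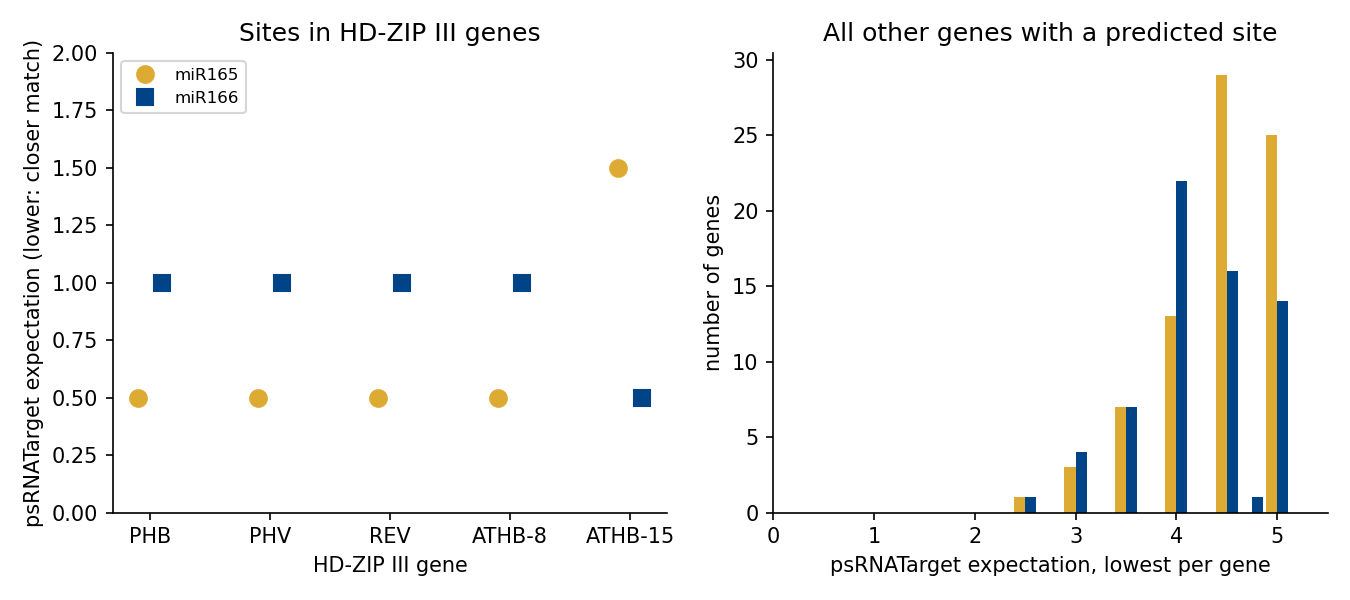
psRNATarget expectation (no unit, lower is closer) of miR165 (yellow) and miR166 (blue) at the 5 HD-ZIP III genes (left), and the number of other genes at each lowest expectation (right). The HD-ZIP III sites lie between 0.5 and 1.5, and no other gene lies below 2.5.

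Beyond the HD-ZIP III genes the predictions were weaker. Sharing of the HD-ZIP III genes themselves was largely set by the rule that chose the pair and is no result. miR165 had predicted sites in 83 genes and miR166 in 70, and 32 genes were common to both, which is 38.6% of the genes of miR165 and 45.7% of those of miR166. At an expectation of 3 or less they had 9 and 10 genes, of which 6 were shared, the 5 HD-ZIP III genes among them. For genes outside the family the lowest expectation was 2.5, at AT1G41820, a hypothetical protein, for miR165 and at AT4G03250, a homeodomain-like protein, for miR166. Next, at 3.0, miR165 had AT1G49475 (an AP2/B3-like factor), MSL5 (a mechanosensitive channel) and AT5G38030 (a MATE efflux protein), and at 3.5 it had GSTU26, a glutathione S-transferase, among 7 genes. miR166 had ECA1 (a calcium pump of the endoplasmic reticulum), AT1G12470, AT1G41820 and BRM (a SWI2/SNF2 chromatin remodeller) at 3.0.

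A list of 29 other genes of meristems, leaf polarity and small RNA action was searched for sites of the pair. It held the LITTLE ZIPPER genes, which inhibit HD-ZIP III proteins, the KANADI and YABBY genes of the abaxial side, and meristem regulators such as WUS and STM. Of the 29 genes, 0 had a site of miR165 or miR166, and 9 had a site of any sequence in the table. The pair had predicted sites in only 121 genes altogether, so 0 of 29 does not set this list apart. The share of all genes with a site of any sequence was not computed. CUC1 and CUC2, which separate organs, had sites of miR164 at 1.0, and AGO1 had a site of miR168 at 3.0. AGO10 had a site at 1.0 of a sequence with no annotated MIR gene. Of the 8 sequences with the best site in one of these genes, 1 rose in ein2-1, 3 fell and 4 did not pass. Among all 120 sequences tested, 20.8% were called higher and 31.7% lower. The sequence with the AGO10 site fell by 2.74 on the log2 scale (adjusted p = 1.29e-07 by edgeR, n = 3 per group), and miR168 was among those that fell. Unannotated sequences with sites in YAB5, at 5.0, and in CLV1, at 4.0, fell by 0.95 (adjusted p = 0.0263) and rose by 1.11 (adjusted p = 0.027).

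miR166 was the most abundant sequence in all 6 libraries. Col-0 replicates 1, 2 and 3 gave 144750, 83159 and 85103 counts of it, and ein2-1 replicates 1, 2 and 3 gave 225799, 371415 and 286258. It made up 26.0%, 25.0% and 25.2% of the counts in the Col-0 libraries and 37.2%, 37.6% and 38.7% in the ein2-1 libraries. All ein2-1 shares were above all Col-0 shares. A share of all ein2-1 libraries above all Col-0 libraries was seen for 20.8% of the 120 sequences tested. The exact 95% binomial (Clopper-Pearson) intervals were 24.82 to 25.12% for the lowest Col-0 share and 37.11 to 37.35% for the lowest ein2-1 share. They cover counting error only, since reads were counted without molecular identifiers and copies made by PCR count again. The mean share was 25.4% ± 0.533 (SD, n = 3) in Col-0 and 37.9% ± 0.762 (SD, n = 3) in ein2-1, a difference of 12.4 percentage points (exact two-sided permutation test, p = 0.1, the smallest that 3 libraries against 3 can give).

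miR165 was less abundant, ranking between 4 and 7 by count. In replicate order, Col-0 gave 23669, 12872 and 12984 counts and ein2-1 gave 37843, 37006 and 31744. Its share was 4.25%, 3.87% and 3.85% across the Col-0 libraries, and 6.24%, 3.75% and 4.29% across those of ein2-1. The groups overlapped: ein2-1 replicate 1 was the highest of the 6 libraries and ein2-1 replicate 2 the lowest. The mean was 3.99% ± 0.227 (SD, n = 3) in Col-0 and 4.76% ± 1.31 (SD, n = 3) in ein2-1, a difference of 0.771 percentage points (exact two-sided permutation test, p = 0.6). The difference was 0.0308 points without ein2-1 replicate 1, 1.28 points without ein2-1 replicate 2, and 0.224 points when the total was taken over all entries as deposited.

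Together the pair held 30.3%, 28.8% and 29.1% of the counts in Col-0 and 43.5%, 41.4% and 43.0% in ein2-1. The groups did not overlap, and the means differed by 13.2 points (exact two-sided permutation test, p = 0.1, the smallest possible). Most of this difference was that of miR166. Of the 120 sequences tested, 43.3% had a share in every ein2-1 library below every Col-0 library.

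**Figure D2:**
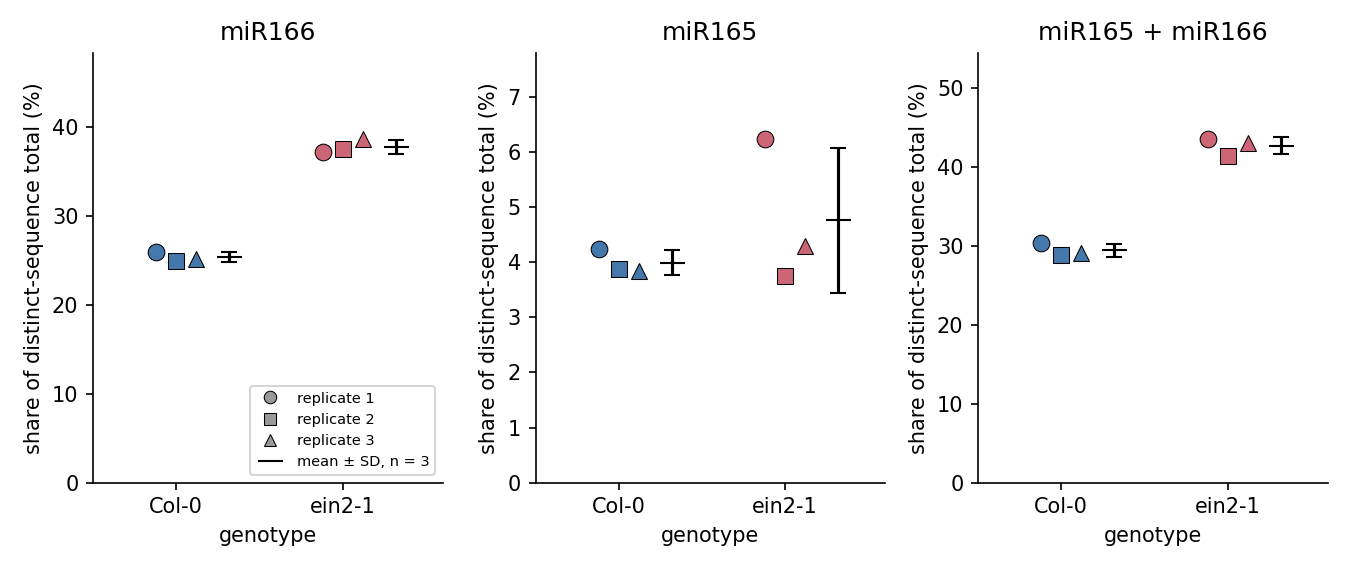
Share (%) of each library's distinct-sequence total held by miR166, miR165 and both, in Col-0 (blue) and ein2-1 (red); shapes are replicates and bars are mean ± SD, n = 3, and each panel has its own axis from 0. For miR166 the ein2-1 libraries (37.2 to 38.7%) are above the Col-0 libraries (25.0 to 26.0%), and for miR165 the groups overlap.

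Change between genotypes was then tested with scaling for composition, by edgeR's quasi-likelihood test with TMM factors and Benjamini-Hochberg adjustment over 120 sequences. miR166 was at 244416, 220802 and 216950 CPM (counts scaled to a common library total) in Col-0 and at 558975, 403765 and 336958 CPM in ein2-1, so the groups did not overlap. The CPM of all ein2-1 libraries was above that of all Col-0 libraries for 25.8% of the 120 sequences. miR166 rose in ein2-1, with a log2 fold change of 0.93 ± 0.28 (SE), or 1.91-fold (edgeR, adjusted p = 0.00524, n = 3 per group). In this test 52.5% of all sequences were called, 20.8% higher and 31.7% lower, and miR166 was the 26th highest of 120 by fold change. The median log2 fold change of all sequences was -0.15, and miR166 was 1.08 above that median. Without ein2-1 replicate 1 the log2 fold change of miR166 was smaller, at 0.62 ± 0.17 (SE), and was still called higher (edgeR, adjusted p = 0.006). It was then 0.97 above the median of that fit.

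miR165 was at 39966, 34178 and 33100 CPM in Col-0 and at 93682, 40229 and 37366 CPM in ein2-1. ein2-1 replicate 1 stood far above the other libraries, and ein2-1 replicate 3 was below Col-0 replicate 1. The log2 fold change was 0.68 ± 0.32 (SE), or 1.6-fold, and did not pass the threshold of 0.05 (edgeR, adjusted p = 0.075, n = 3 per group). The call depends on the scaling: with RLE factors the value was 0.67 ± 0.16 (SE) and passed (adjusted p = 0.000561). The TMM factors of ein2-1 replicates 1, 2 and 3 were 0.666, 0.932 and 1.15, and the RLE factors were 0.843, 0.835 and 0.931, and the part of this spread in the result was not tested. Without ein2-1 replicate 1 the value was 0.03 with TMM (adjusted p = 0.873).

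The scaling also moved the balance of calls over all sequences. TMM gave 25 higher and 38 lower, of which 39.7% were higher, and RLE gave 39 and 39, or 50.0%. A fit to all entries as deposited, read once per sequence, gave 41 and 38 (51.9%) of 118 sequences. That fit tested 153 entries, so it changed the rows tested as well as the scaling. Relative to the median of all sequences, miR166 was 0.85 to 1.02 higher, on the log2 scale, in the 15 alternative settings, and miR165 0.38 to 0.84 higher. The median itself ranged from -0.44 with library totals only to 0.45 without Col-0 replicate 1.

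**Figure D3:**
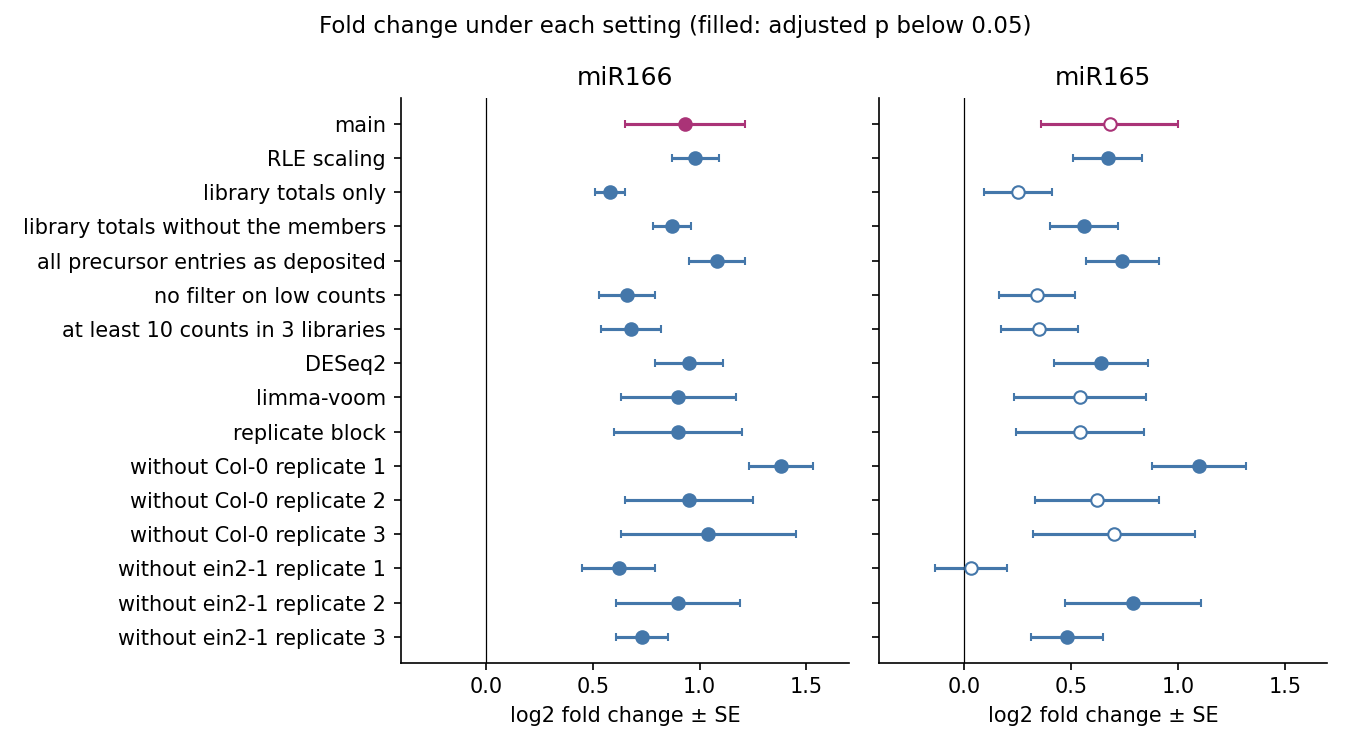
Log2 fold change ± SE (ein2-1 over Col-0) of miR166 (left) and miR165 (right) in the reported fit (purple, top) and 15 alternatives (blue), filled where the adjusted p is below 0.05. miR166 is filled in every setting shown (0.58 to 1.38), and miR165 in 7 of the 15 alternatives (0.03 to 1.1). The SE was derived from the F statistic in edgeR fits and from the t statistic in limma-voom, and is DESeq2's own in that fit.

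In the authors' deposited table, which counts repeated entries separately, miR166 had a log2 fold change of 1.24 (FDR 7.18e-21) and was in the list of changed miRNAs. miR165 had 0.92 (FDR 5.44e-05) in the authors' deposited table and was not in that list, whose smallest absolute log2 fold change was 1.06. The list held 46 of 178 entries (25.8%), with 23 higher in ein2-1 (12.9%), and its rule is not stated: 44 entries with an FDR below 0.05 and a change of at least 2-fold in the authors' deposited table were not in it.

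The ratio of miR166 to miR165 within a library needs no scaling. Col-0 had ratios of 6.12, 6.46 and 6.55, and ein2-1 had ratios of 5.97, 10.04 and 9.02. The Col-0 libraries were close to each other, while ein2-1 replicate 1 was below them and ein2-1 replicates 2 and 3 were above. miR165 was 13.2 to 14.1% of the pair in Col-0, and 14.4%, 9.06% and 9.98% in ein2-1. The mean log2 ratio was 2.67 ± 0.05 (SD, n = 3) in Col-0 and 3.03 ± 0.4 (SD, n = 3) in ein2-1, a difference of 0.35 (exact two-sided permutation test, p = 0.4, where 0.1 is the smallest possible). A different response of the pair's members to genotype was thus not shown, nor was an equal one, and the difference in log2 ratio was 0.58 without ein2-1 replicate 1, 0.2 without ein2-1 replicate 2 and 0.28 without ein2-1 replicate 3.

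**Figure D4:**
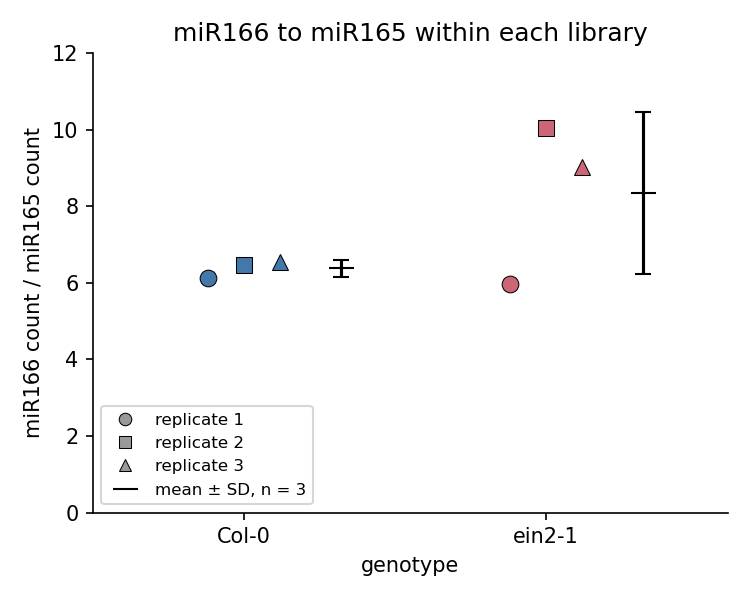
Count of miR166 divided by count of miR165 (no unit) in each library of Col-0 (blue) and ein2-1 (red); shapes are replicates and bars are mean ± SD, n = 3. Col-0 lies between 6.12 and 6.55, and ein2-1 has 1 library at 5.97 and the others at 9.02 and 10.04.

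Other miRNAs of meristems and leaf polarity, from a list of 8 families, were measured in the same fit. The list, taken by family name, had 12 distinct sequences, among them 5′ strands of miR170 and miR171 precursors. All 12 were tested: 2 rose in ein2-1, 6 fell and 4 did not pass, against 20.8% called higher and 31.7% lower among all 120. Their median log2 fold change was -0.9, against -0.15 over all 120. miR160, which targets auxin response factors, had a log2 fold change of 2.87 with an SE of 0.31 and rose (adjusted p = 1.74e-09 by edgeR). miR171a-3p, which targets HAIRY MERISTEM genes, rose by 1.33 with an SE of 0.3 (adjusted p = 0.000261 by edgeR), and by 0.8 without ein2-1 replicate 3 (adjusted p = 0.0145).

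Among those that fell, miR168, which targets AGO1, the Argonaute through which miR165 and miR166 act, was at 17480, 15997 and 16484 CPM in Col-0 and at 9006, 6326 and 5118 CPM in ein2-1. Its groups did not overlap, and it fell by 1.29 on the log2 scale (edgeR, adjusted p = 0.000388). In the edgeR test 31.7% of the 120 sequences were called lower. By share of counts, a measure without TMM scaling, 43.3% were lower in every ein2-1 library than in every Col-0 library. The matching figure by CPM is not given here. miR390, which starts the making of small RNAs against ARF3 and ARF4 on the adaxial side, was at 30076, 35781 and 35001 CPM in Col-0 and at 12625, 6034 and 8436 CPM in ein2-1. It fell by 1.9 (edgeR, adjusted p = 3.93e-06). miR319a/b, which targets TCP genes of leaf growth, fell by 2.53, and a MIR319c product by 3.1. miR394, a mobile signal of the shoot meristem, fell by 1.51. The 5′ strand miR171b-5p fell by 2.57, while its 3′ partner, within miR171b/c-3p, did not pass. The 4 that did not pass were miR164 at 0.33, miR396a-5p at -0.23, miR171b/c-3p at -0.51 and a sequence shared by miR170-5p and miR171a-5p at 0.09. With library totals alone miR164 was at -0.01 and the shared miR170-5p sequence at -0.17, and without Col-0 replicate 1 miR396a-5p was at 0.23. In other settings, miR396a-5p passed as lower in 5 of 15 and miR171b/c-3p in 2 of 15, while miR171b/c-3p was at -0.02 without Col-0 replicate 1.

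**Figure D5:**
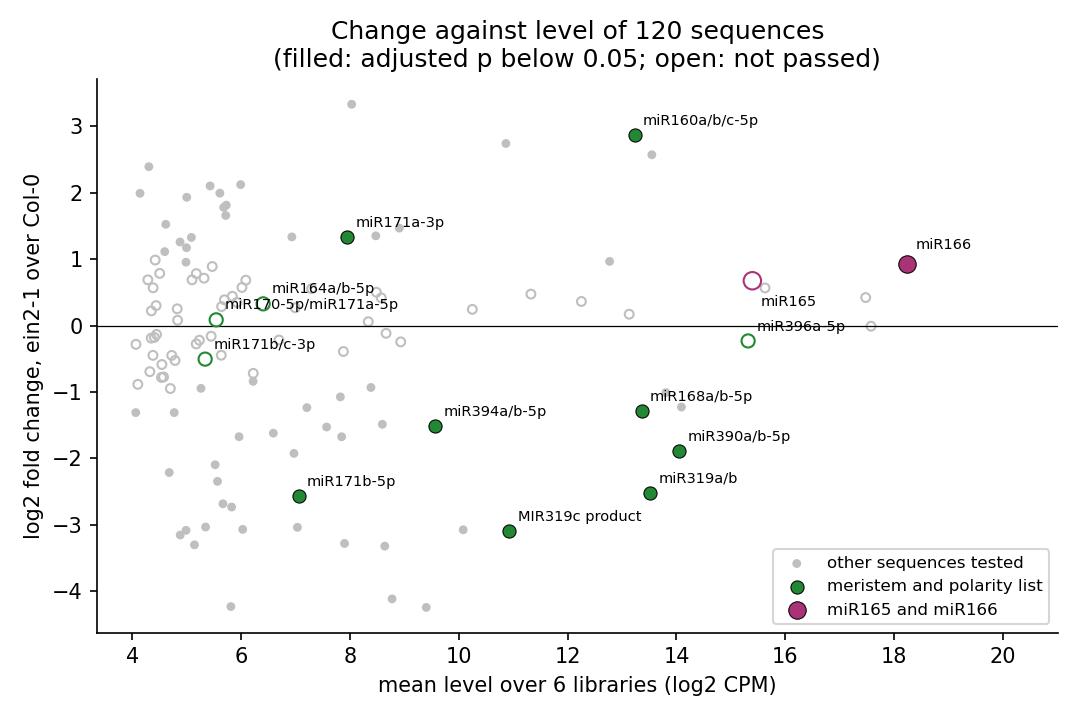
Log2 fold change (ein2-1 over Col-0) against mean log2 CPM over the 6 libraries for 120 sequences, with miR165 and miR166 in purple and the meristem and polarity list in green; filled points have an adjusted p below 0.05 (edgeR). miR166 is the most abundant point and lies at 0.93, and the list spreads from -3.1 to 2.87.

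The sequences most like miR166 over the 6 libraries were found by the root mean square distance of centred log2 CPM. The nearest were 3 rare sequences without an annotated MIR gene at 0.128, 0.175 and 0.234, and miR156-5p at 0.181 and miR777 at 0.222. The rare sequences had only 4 to 37 counts in a library, so their distances rest on few reads. miR156, which targets SPL genes of phase change, was at 4596, 4779 and 5817 CPM in Col-0 and at 12880, 8150 and 8666 CPM in ein2-1. These 5 sequences were picked for their likeness to a miRNA that rose, so the number called is no result about them. Of the 5, 2 passed as higher in ein2-1, against 20.8% of all 120 sequences, and 3 did not pass. Among the latter was miR777 (0.56, adjusted p = 0.102 by edgeR). miR156 rose by 0.97 with an SE of 0.3 (log2 scale; adjusted p = 0.00586 by edgeR). miR165 was the 11th nearest, at 0.291.

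miR156 was also among the 5 other sequences with a predicted site in a HD-ZIP III gene, each in 1 gene. Its site in REV had an expectation of 3.0. miR397b had a site in REV at 3.5, and products of MIR156 and MIR863 genes had sites there at 4.0. miR390 had a site in PHB at 5.0, the weakest score in the sheet. These scores are all above those of miR165 and miR166 in the same genes, which were 0.5 and 1.0.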

How the data were processed

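Small RNA was extracted with a miRNeasy kit, per the labels' protocols, and cutadapt and TAIR10 are named in the submitters' processing notes; which aligner and counter were used is not given in the sources used here. In the deposited tables, the raw counts per precursor entry are identical for entries with the same mature sequence, so each of 142 sequences was counted once. The authors deposited a log2 fold change and an FDR-adjusted p-value per entry, and a psRNATarget score for each of 23944 pairs of entry and site; 7 emptied lines were not analysed here. All 13696 target transcripts found in the TAIR10.1 reference lay within the reference gene of the same ID. Sequences and sites were placed by exact match.

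The main test was the quasi-likelihood test of edgeR 4.0.16 under R 4.3.3. It used TMM factors, filterByExpr defaults, genotype as the only term and all 6 libraries, was two-sided, and kept 120 sequences. It was run on simulated data with the same spread in both genotypes and as many rises as falls. That run cannot speak for replicates of unequal spread or for unequal numbers of rises and falls. Its outcome is not given here and is not used as support. Alternatives used RLE factors, library totals, all entries, other filters (none, or 10 counts in 3 libraries), DESeq2 1.42.0, limma-voom (limma 3.58.1), a replicate block and each library left out. The SE of an edgeR fit was derived here as the absolute log2 fold change divided by the square root of the test's F statistic. CPM is edgeR's value on the TMM-scaled total, log2 CPM has a prior count of 2, and the ratio had 0.5 added to each count for its log2 value. Exact permutation tests used scipy 1.17.1. With no spiked-in RNA named, a change in the total amount of miRNA cannot be seen. The labels name neither days nor batches.

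The miRNAs, gene lists and tests were chosen with earlier results of these data known. The text names the miRNAs found by the target rule, the listed meristem and polarity miRNAs, the 5 sequences nearest to miR166, other miRNAs with a HD-ZIP III site, and for each member the 5 other genes of lowest expectation. The unannotated sequences with sites in AGO10, YAB5 and CLV1 fall outside this rule and were named after their values were seen.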

Additional observations from a re-analysis of the deposited data

How the results depend on the processing

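miR166 was higher in ein2-1 and past the threshold in all 15 alternatives, at log2 0.58 (library totals only) to 1.38 (adjusted p from 3.89e-09 to 0.0302). miR165 was above 0 in all 15 and past the threshold in 7, with adjusted p from 8.9e-05 to 0.873. It passed with RLE factors (0.67), totals without miR165 and miR166 (0.56), all entries as deposited (0.74) and DESeq2 (0.64). With 1 library left out miR165 ranged from 0.03 without ein2-1 replicate 1 to 1.1 without Col-0 replicate 1. It passed without Col-0 replicate 1, ein2-1 replicate 2 (0.79) or ein2-1 replicate 3 (0.48). The cause was not tested.

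Same-numbered libraries correlated at 0.158, -0.0586 and 0.158 in their deviations, and differently numbered libraries at -0.188 to 0.0628. These values do not settle whether the numbers mark pairs. With no day or batch in the labels, the numbers were not taken as pairs. With the replicate block miR166 was at 0.9, miR165 at 0.54 (adjusted p = 0.12) and the difference in log2 ratio at 0.35, and 69 sequences were called against 63.

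The count of sequences higher in ein2-1 was 25, and it became 39 with RLE factors, 41 with all entries and 50 without Col-0 replicate 1. miR164 was at -0.01 with library totals and -0.05 without ein2-1 replicate 1. The sequence of miR170-5p and miR171a-5p was at -0.17 with library totals, -0.1 with no filter, -0.07 with at least 10 counts in 3 libraries and, with 1 library left out, between -0.3 without ein2-1 replicate 3 and 0.46 without Col-0 replicate 3. With 1 library left out, miR396a-5p was between -0.5 (without ein2-1 replicate 1) and 0.23 (without Col-0 replicate 1). Genes with a predicted site fell from 83 to 29 for miR165 and from 70 to 39 for miR166 at an expectation of 4 or less, and to 9 and 10 at 3 or less. The rule found the same 2 sequences in its 4 alternatives. The differences in share of miR166 and of the pair kept their direction without each library in turn, at 12.8 points or less for miR166 and 12.8 to 13.8 for the pair. With 3 libraries a group, exact tests cannot go below 0.1.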
